A study of Mus musculus with 6 samples.

Results

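The laminin chains described here are the products of 9 mouse genes, Lama1, Lama2, Lama3, Lama4, Lama5, Lamb1, Lamb2, Lamb3 and Lamc1, chosen by gene symbol. All 9 were found among the 53927 symbols of the count files, and all 9 passed the filter on low counts that left 20422 genes. RNA was taken from cells labelled as wild-type embryonic stem cells (ESCs), with 3 libraries from cells in BRD0705/PD03 and 3 from cells in 2i. Both media were serum-free N2B27 with 1 µM PD0325901, which inhibits the kinase MEK. BRD0705/PD03 also held 8 µM BRD0705, an inhibitor selective for GSK3 alpha, and 2i held 3 µM CHIR99021, which inhibits both forms of GSK3. The question addressed is what changes in RNA when the inhibitor of both kinases is replaced by the selective one.

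E14, an established line from a male embryo, is the labelled cell line, but the growth protocol describes B6D2F1 ESCs, derived and grown on feeder cells in each medium. Which of these were sequenced is not settled. Feeder cells are fibroblasts, and fibroblasts make laminins too. The summed level of 4 Y-linked genes was 307.6 to 329.2 CPM in BRD0705/PD03 and 9.50 to 11.01 CPM in 2i. That gap came from Ddx3y, Eif2s3y and Uty, while Kdm5d had 4.07 to 4.65 CPM and 3.13 to 3.47 CPM in the same order. The 2i libraries thus held little Y-linked RNA for a line labelled male, and the labels do not settle why. Medium and a difference between the cells themselves therefore cannot be told apart in any comparison below, those of the chains included. CPM, the usual depth-scaled unit of RNA-seq counts, were computed on effective library sizes. All 9 chains lie on autosomes. Pluripotent cell markers summed to 3664 to 3786 CPM in BRD0705/PD03 and 4132 to 4417 CPM in 2i, with Pou5f1, the central factor of pluripotency, at 687 ± 6.29 CPM and 765 ± 54.9 CPM in the same order (SD, n = 3 each). Members of that list differed in both directions. By the test described below, 5 were higher and 6 lower of 12, where 30.1% of all genes were higher and 31.4% lower. Nanog, a factor of naive pluripotency, stood at 324 ± 20.3 CPM in BRD0705/PD03 and 625 ± 8.52 CPM in 2i. Lin28a, an RNA-binding protein gene named after its values were seen, stood at 381 ± 14.7 CPM and 35.3 ± 1.07 CPM in the same order. Library totals were 27825601 to 40790837 counts in BRD0705/PD03 and 16968959 to 51180228 in 2i. Whether replicate libraries came from separate cultures is not labelled, and the p-values then cover the spread among these libraries alone, which can be technical.

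A laminin is a secreted cross-shaped protein of an alpha, a beta and a gamma chain, joined through a coiled coil. Most alpha chains and the common beta and gamma chains carry domains by which trimers link into a sheet, and the alpha chain's far end binds cells through integrins and dystroglycan. Laminin sheets are the scaffold on which basement membranes form, and in the early mouse embryo the trimers with the Lama1 or Lama5 product, together with those of Lamb1 and Lamc1, are the main ones around the epiblast. Nidogens tie this sheet to type IV collagen.

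Laminin RNA changed in its make-up. In BRD0705/PD03, RNA of Lama1, Lama3 and Lamc1 was lower and that of Lamb1 was higher, while Lama5, the most abundant alpha chain, was lower by a smaller step. Lama1 stood at 25.2 ± 0.613 CPM in BRD0705/PD03 and 159 ± 12.8 CPM in 2i, and Lamb1 at 138 ± 10.9 CPM and 38.6 ± 1.90 CPM in the same order (SD, n = 3 each). With edgeR's quasi-likelihood test and an adjusted p under 0.05 by Benjamini-Hochberg over all genes, 9 of 9 chains were called, 5 higher and 4 lower, where 61.4% of all genes were called, 30.1% higher and 31.4% lower. By 2-fold or more, 3 chains were higher and 3 lower, where 21.2% of all genes passed both limits, 10.9% higher and 10.3% lower. The groups did not overlap in CPM for 9 of 9 chains, nor for 66.0% of all genes. The median log2 fold change of BRD0705/PD03 over 2i was 0.17 over the chains and 0.00 over all genes, because the chains moved both ways. Each log2 fold change below is of BRD0705/PD03 over 2i, with its standard error.

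**Figure D1:**
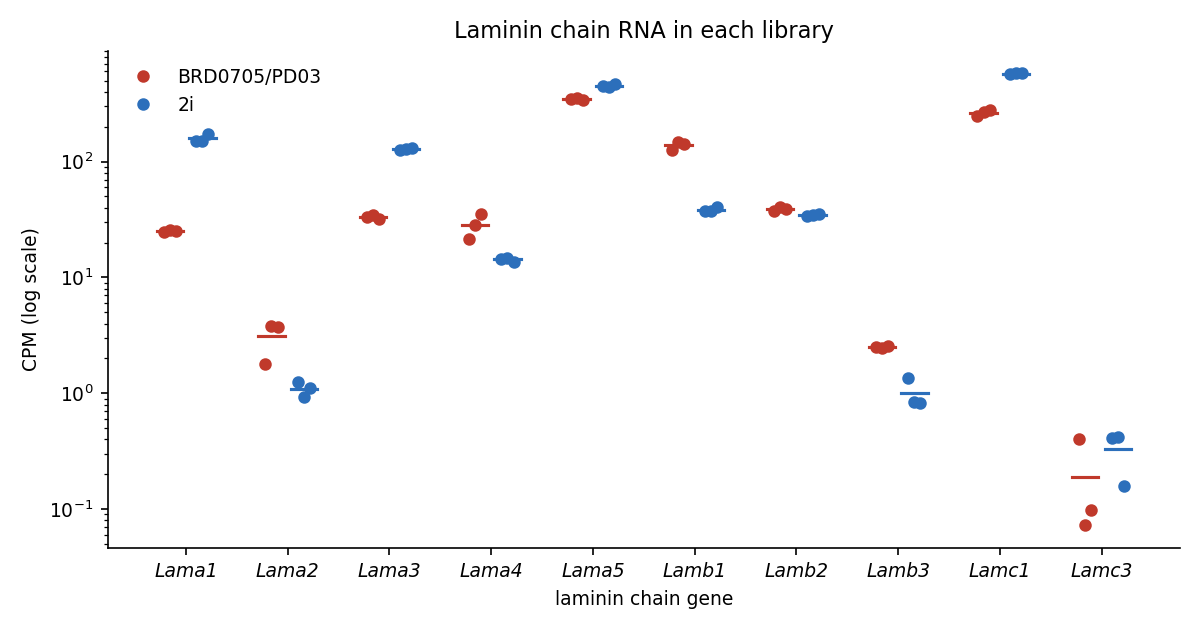
CPM of each laminin chain gene on a log scale; points are the 3 libraries of each medium and lines are group means, with BRD0705/PD03 left of 2i. Lama1, Lama3 and Lamc1 sit lower in BRD0705/PD03, Lamb1 sits higher, and the libraries of Lamc3 overlap between media.

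Lama1 (chromosome 17, 67697259 to 67822647, plus strand, GRCm38) encodes the alpha chain of the embryonic trimer, made in the mouse by epiblast and by the endoderm next to it. Its level was 24.6, 25.8 and 25.4 CPM in BRD0705/PD03, from 797, 709 and 1036 counts, and 151, 151 and 174 CPM in 2i, from 2551, 7592 and 4398 counts. All 3 BRD0705/PD03 libraries lay close together and far below every 2i library. The log2 fold change was -2.65 ± 0.06 (adjusted p = 1.18e-16), so that the level in 2i was 6.29 times that in BRD0705/PD03. In rank, Lama1 was number 534 from the lowest of 20422 genes. Centred log2 CPM over the 6 libraries was compared with that of 10338 other named genes averaging 5 CPM or more. The 3 nearest to Lama1 were Platr13, Fut10 and Klhl13, at Euclidean distances of 0.11, 0.20 and 0.21. The difference between media dominates this distance, so it picks genes of like log2 fold change (-2.67, -2.70 and -2.78). It does not show that they vary together within a medium. Platr13 stood at 32.5 ± 1.57 CPM in BRD0705/PD03 and 208 ± 12.2 CPM in 2i.

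Lama3 (chromosome 18, 12333819 to 12583013, plus strand) encodes an alpha chain of stratified epithelia, where it joins the Lamb3 product to anchor the epidermis. It had 33.4, 34.4 and 32.2 CPM in BRD0705/PD03 and 127, 128 and 131 CPM in 2i. The libraries of each medium differed little among themselves and the media were far apart. The log2 fold change was -1.95 ± 0.04 (adjusted p = 2.66e-17), and the level in 2i was 3.86 times that in BRD0705/PD03. Lamb3, its beta chain partner in skin, was higher in BRD0705/PD03 at a low level in both media. An annotated antisense gene, Gm29200, overlaps 1.83% of the exon bases of Lama3, and since no source used here states whether counting used strand, reads of the pair cannot be told apart there.

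Lama5 (chromosome 2, 180176373 to 180225859, minus strand) encodes the alpha chain of a widespread trimer that is a common culture substrate for pluripotent cells. Levels were 350, 352 and 342 CPM in BRD0705/PD03 and 448, 442 and 471 CPM in 2i. The media did not overlap, and the step was small beside those of Lama1 and Lama3. This was a log2 fold change of -0.38 ± 0.04 (adjusted p = 1.12e-07). Tested against a fold of 1.5, Lama5 was not called (adjusted p = 1.0).

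Lama4 and Lama2 encode alpha chains that are typical of mesenchyme, vessels, nerve and muscle rather than of epiblast. Lama4 (chromosome 10, 38965515 to 39110188, plus strand), whose product has a short arm without the linking domain, had 21.6, 28.4 and 35.02 CPM in BRD0705/PD03 and 14.5, 14.7 and 13.7 CPM in 2i. The BRD0705/PD03 libraries were spread widely, with a coefficient of variation of 23.6% against 3.53% in 2i, and all lay above 2i. Lama4 differed by 0.99 ± 0.20 on the log2 scale (adjusted p = 0.0106). That call was lost without 2i replicate 3 (0.97, adjusted p = 0.0504) and against a fold of 1.5 (adjusted p = 0.0871), within a range of adjusted p from 3.97e-12 to 0.0871 over 13 alternatives. Lama2 (chromosome 10, 26980036 to 27619758, minus strand), the alpha chain of muscle basement membrane, was scarce, at 1.79, 3.78 and 3.75 CPM in BRD0705/PD03 and 1.25, 0.938 and 1.11 CPM in 2i. Replicate 1 of BRD0705/PD03 was the lowest of its group for both genes, and for Lama2 it lay near the 2i libraries without overlapping them. The log2 fold change of Lama2 was 1.55 ± 0.29 (adjusted p = 0.000623), from 58 to 153 counts per library in BRD0705/PD03 and 21 to 47 in 2i. An antisense gene, Gm48084, overlaps 3.86% of the exon bases of Lama2.

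Lamb1 (chromosome 12, 31265234 to 31329644, plus strand) encodes the beta chain of the embryonic trimers. Levels were 126, 148 and 141 CPM in BRD0705/PD03 and 37.2, 37.7 and 40.7 CPM in 2i. Every BRD0705/PD03 library was more than 2-fold above every 2i library. The log2 fold change was 1.84 ± 0.06 (adjusted p = 3.48e-13), a fold of 3.58, and the gene was number 924 from the highest of 20422. The 3 genes nearest to Lamb1 by the distance used for Lama1 were Pdk1, Klf12 and Tbc1d16, at 0.11, 0.15 and 0.15. Pdk1, a kinase that restrains mitochondrial pyruvate oxidation, stood at 121 ± 7.41 CPM in BRD0705/PD03 and 32.7 ± 0.397 CPM in 2i.

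Lamb2 (chromosome 9, 108479736 to 108490530, plus strand), the beta chain of the kidney filter and of the nerve-muscle junction, had 37.7, 40.4 and 39.3 CPM in BRD0705/PD03 and 34.0, 34.6 and 35.3 CPM in 2i. The groups did not overlap, but the step was the smallest of the 9 chains (0.17 ± 0.05, adjusted p = 0.00675), and against a fold of 1.5 it was not called (adjusted p = 1.0). Lamb3 (chromosome 1, 193207699 to 193343878, plus strand), the epidermal beta chain, was scarce at 2.50, 2.47 and 2.55 CPM in BRD0705/PD03 and 1.36, 0.838 and 0.829 CPM in 2i. All 3 BRD0705/PD03 libraries lay above 2i (1.38 ± 0.21, adjusted p = 1.48e-05), on 21 to 104 counts per library over both media.

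Lamc1 (chromosome 1, 153218922 to 153332786, minus strand) encodes the gamma chain that most laminins share, and in mice its loss stops basement membranes from forming in the early embryo. It had 249, 268 and 277 CPM in BRD0705/PD03 and 569, 578 and 576 CPM in 2i. The 2i libraries agreed within a coefficient of variation of 0.865%, and all lay above BRD0705/PD03. The log2 fold change was -1.12 ± 0.04 (adjusted p = 6.7e-14), and the level in 2i was 2.17 times that in BRD0705/PD03. The gamma chain gene Lamc3 is not among the 9 and did not pass the test. It stood at 0.190 ± 0.182 CPM in BRD0705/PD03 and 0.331 ± 0.150 CPM in 2i (-0.83 ± 0.58, adjusted p = 0.234).

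**Figure D2:**
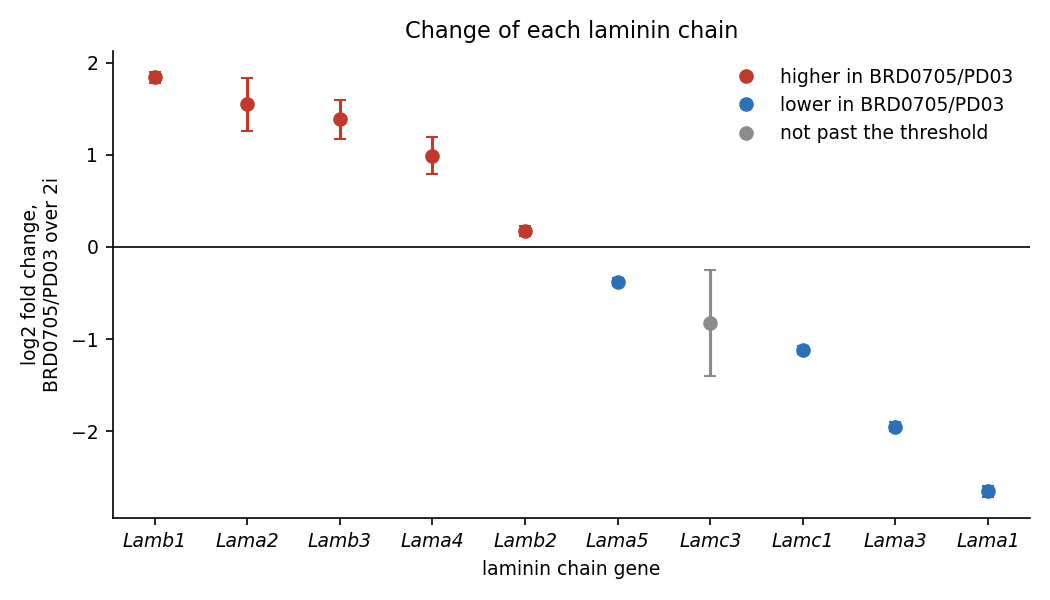
Log2 fold change of BRD0705/PD03 over 2i for each laminin chain gene, ordered from highest to lowest, with error bars of 1 standard error; colours give the call. Lamb1 is highest at 1.84 and Lama1 lowest at -2.65, and Lamc3 is in grey.

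Promoter windows were matched in RefSeq (GRCm38.p6) for 5 of the 9 genes, Lama2, Lama5, Lamb1, Lamb2 and Lamb3. Lamb1 and Lama5 are shown because both are abundant, moved in opposite directions, and have windows rich in G and C. The 250 bases before each start follow, read 5′ to 3′ along the gene's strand, from chr12:31265043-31265292 (plus strand) for Lamb1 and from chr2:180225860-180226109 (minus strand) for Lama5. Capitals mark the motif CCGCCC, the core of sites bound by Sp and Klf factors, on either strand.
Lamb1: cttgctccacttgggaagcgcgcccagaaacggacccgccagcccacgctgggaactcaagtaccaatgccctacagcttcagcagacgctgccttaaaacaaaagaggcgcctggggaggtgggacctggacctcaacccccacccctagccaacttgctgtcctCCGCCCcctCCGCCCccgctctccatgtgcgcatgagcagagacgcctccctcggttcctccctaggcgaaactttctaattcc
Lama5: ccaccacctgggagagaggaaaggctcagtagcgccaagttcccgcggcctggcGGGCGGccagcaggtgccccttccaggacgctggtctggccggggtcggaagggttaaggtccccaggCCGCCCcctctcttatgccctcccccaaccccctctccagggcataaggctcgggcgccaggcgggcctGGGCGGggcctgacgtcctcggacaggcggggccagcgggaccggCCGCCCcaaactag
The Lamb1 stretch is 62.0% G and C, with 2 such motifs starting 84 and 75 bases before the start. The Lama5 stretch is 72.4% G and C, with 4 motifs. Of the 32851 windows of 300 bases in the RefSeq table, 35.7% hold CCGCCC on either strand, so the motif is common. Further motifs were searched on both strands. For the TCF/LEF factors, the partners of beta-catenin, the letters were CTTTGAT and, as a second form, CTTTGTT. For GATA factors the letters were GATAAG, and for AP-1 they were TGACTCA. None of these letters is in the windows of the 5 genes. Of all windows, 3.73%, 5.85%, 7.44% and 5.20% hold them in that order, so most windows lack each of them. Absence from so few genes therefore does not set the chains apart. The other chain genes, Lama1 and Lamc1 among them, were not searched.

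Levels can be compared between chains only per length. Dividing CPM by the length of all annotated exons of each gene, in kilobases, gave the chains in order of their level. In BRD0705/PD03 the order was Lamc1 at 32.0, Lama5 at 30.6, Lamb1 at 13.9, Lamb2 at 6.43, Lama3 at 3.10, Lama1 at 2.61, Lama4 at 2.35, Lamb3 at 0.379 and Lama2 at 0.190 CPM per kb. On this length Lamc1 and Lama5 did not differ there beyond their spread, nor did Lama1 and Lama4. Per kb of coding length, however, Lamc1 stood at 54.8 and Lama5 at 31.2 in BRD0705/PD03, and per kb of the longest transcript Lama4 stood at 4.69 and Lama1 at 2.65. In 2i the order was Lamc1 at 69.4, Lama5 at 39.8, Lama1 at 16.4, Lama3 at 12.0, Lamb2 at 5.70, Lamb1 at 3.89, Lama4 at 1.19, Lamb3 at 0.153 and Lama2 at 0.0671 CPM per kb, and libraries of neighbours in that order did not overlap. Lamb1 thus ranked above Lamb2 in BRD0705/PD03 and below it in 2i. The order of Lamb1 and Lamb2 in 2i rests on the length used: per kb of the longest annotated transcript, Lamb1 stood at 6.67 and Lamb2 at 6.16 in 2i, and Lama4 was above Lama3, at 3.16, in BRD0705/PD03.

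Among the alpha chains, Lama5 made up 80.3, 78.6 and 77.4% of the summed CPM per kb in BRD0705/PD03 and 57.8, 57.4 and 56.9% in 2i. Lama1 made up 6.72 ± 0.0723% in BRD0705/PD03 and 23.6 ± 0.944% in 2i, and Lama3 8.00 ± 0.225% and 17.3 ± 0.438% in the same order (SD, n = 3 each). In other words Lama1 and Lama3 were a large minority of alpha chain RNA in 2i and a small one in BRD0705/PD03. Among the beta chains, Lamb1 made up 66.0, 68.0 and 67.4% in BRD0705/PD03 and 39.3, 39.5 and 40.9% in 2i, with Lamb2 at 31.0 ± 0.924% and 58.5 ± 0.652% in the same order. Per kb of the longest transcript the share of Lamb1 was 76.2% in BRD0705/PD03 and 51.1% in 2i, and that of Lama5 was 73.9% and 56.0%.

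**Figure D3:**
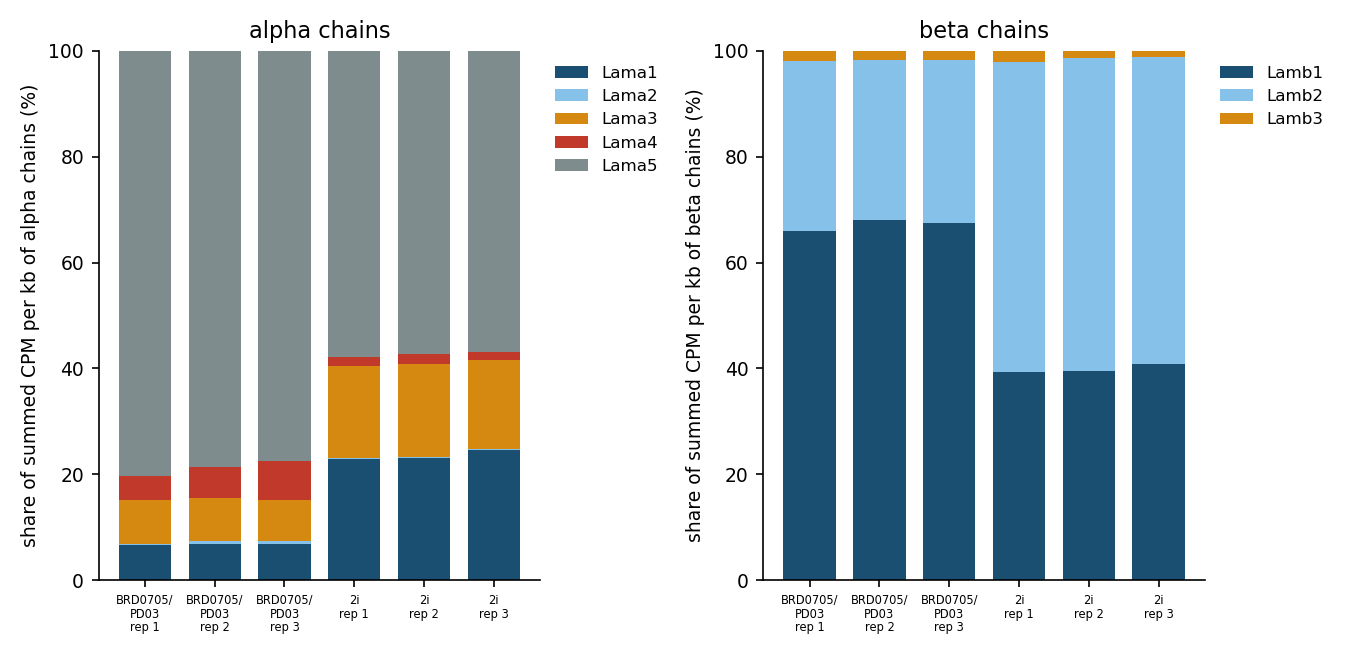
Share of each gene in the summed CPM per kb of exon of the alpha chains (left) and beta chains (right), in percent, for each library. The share of Lama1 and Lama3 is smaller and that of Lamb1 larger in the 3 BRD0705/PD03 libraries.

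Summed per kb, alpha chain RNA amounted to 38.2, 39.4 and 38.8 CPM per kb in BRD0705/PD03 and 68.1, 67.6 and 72.6 CPM per kb in 2i. Beta chain RNA amounted to 19.3, 21.9 and 21.0 CPM per kb in BRD0705/PD03 and 9.55, 9.63 and 10.04 CPM per kb in 2i. The alpha sum was thus lower and the beta sum higher in every BRD0705/PD03 library than in every 2i library. These are levels of RNA and do not give the amounts of protein or of trimers.

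Ratios between chains within a library do not depend on how libraries were scaled, and 4 were compared. The log2 ratio of Lamb1 to Lamc1 was -0.98, -0.86 and -0.98 in BRD0705/PD03 and -3.93, -3.94 and -3.82 in 2i, a difference of 2.96. That of Lama1 to Lama5 was -3.83, -3.77 and -3.75 in BRD0705/PD03 and -1.57, -1.54 and -1.44 in 2i, a difference of -2.27. Each of these shifts was far larger than the spread between libraries. Lamb1 to Lamb2 differed by 1.67, with means of 1.82 ± 0.07 in BRD0705/PD03 and 0.15 ± 0.05 in 2i, and Lama1 to Lamc1 by -1.53, with means of -3.39 ± 0.05 and -1.86 ± 0.11 in the same order. An exact two-sided permutation test gave p = 0.1 for each, also after adjustment over the 4 ratios, and 0.1 is the smallest p that 3 against 3 libraries allow.

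Fibroblast markers were also higher in BRD0705/PD03. Of 22 such genes 19 were higher and 3 did not pass the test, where 30.1% of all genes were higher, with a median log2 fold change of 1.13 and no marker at 0 in all libraries. Their summed level was 1369, 1811 and 2021 CPM in BRD0705/PD03 and 771, 774 and 730 CPM in 2i. Single markers differed in step, from -0.24 on the log2 scale for Col6a3, not called, to 3.66 for Tagln, both named after their values were seen. Col1a1, Col5a2 and Fbln2 lost their calls with the replicate number as a block, and Col1a1, Lum, Postn and Fbln2 lost theirs against a fold of 1.5. Col1a2, a chain of type I collagen, stood at 307 ± 62.6 CPM in BRD0705/PD03 and 142 ± 4.66 CPM in 2i. Dcn, a proteoglycan of connective tissue, stood at 55.7 ± 8.82 CPM and 29.4 ± 2.55 CPM in the same order. In bulk RNA, fewer cells of a type and less RNA per cell cannot be told apart. The BRD0705/PD03 libraries ran in the same order for the fibroblast sum and for Lama4, with replicate 1 lowest and replicate 3 highest. Lamc1, which was lower in BRD0705/PD03, ran in that order too, at 249, 268 and 277 CPM, and the other chains did not. The order is thus not particular to raised genes. Set against the fibroblast sum, Lama4 amounted to 15.8, 15.7 and 17.3 CPM per 1000 CPM of markers in BRD0705/PD03 and 18.9, 18.9 and 18.8 in 2i. That ratio was slightly lower in BRD0705/PD03, whereas Lama4 itself was higher. Lama2 amounted to 1.31, 2.09 and 1.86 per 1000 CPM in BRD0705/PD03 and 1.62, 1.21 and 1.51 in 2i, and the groups overlapped. Lamb3 overlapped on that scale too, at 1.26 to 1.82 in BRD0705/PD03 and 1.08 to 1.77 in 2i. Lamb1 did not, with 92.2, 81.5 and 69.6 in BRD0705/PD03 and 48.2, 48.7 and 55.8 in 2i, a ratio of means of 1.59 in place of a fold of 3.58. Lamb2 turned direction on that scale, with 27.5, 22.3 and 19.4 in BRD0705/PD03 and 44.1, 44.7 and 48.4 in 2i, a ratio of means of 0.505. The fibroblast sum itself was 2.29 times as high in BRD0705/PD03 as in 2i. A gene raised by less than that turns direction on this scale by arithmetic, whatever cells made its RNA. This scale was chosen after the values were seen, and the part of fibroblast RNA in the results was not tested. Lama1, Lama3, Lama5 and Lamc1 went the other way from the fibroblast markers.

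**Figure D4:**
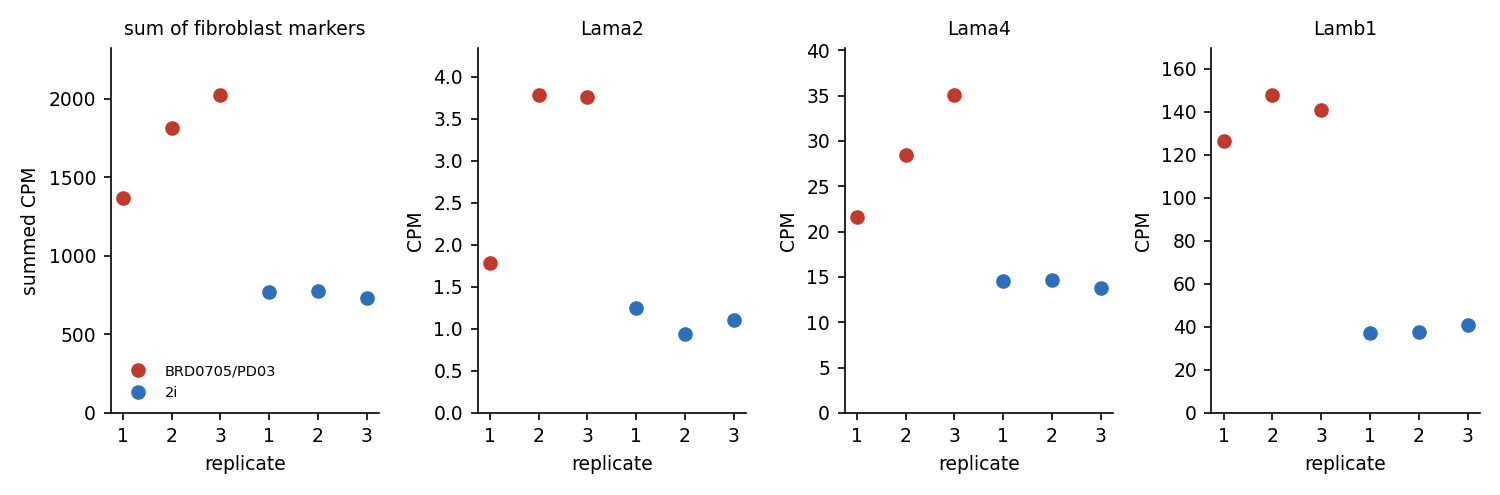
Summed CPM of 22 fibroblast markers and CPM of Lama2, Lama4 and Lamb1 in each library, with the 3 BRD0705/PD03 replicates left of the 3 2i replicates. In BRD0705/PD03 the sum runs from 1369 to 2021 and Lama4 from 21.6 to 35.02 CPM, both lowest in replicate 1, while the 2i libraries lie together.

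Primitive and parietal endoderm, which surround themselves with laminin in the embryo, were checked by 16 markers. Of 12 tested, 6 were higher and 2 lower, where 30.1% of all genes were higher and 31.4% lower. Several defining factors of the lineage were scarce in both media. Gata4 stood at 0.552 ± 0.0330 CPM in BRD0705/PD03 and 0.997 ± 0.0660 CPM in 2i, Gata6 at 0.513 ± 0.0717 and 0.614 ± 0.148 CPM, and Sox17, below the filter, at 0.261 ± 0.0694 and 0.416 ± 0.162 CPM, each in the same order. The summed level of 257 to 277 CPM in BRD0705/PD03 and 44.6 to 47.2 CPM in 2i came mostly from Lrp2, an endocytic receptor, at 225 ± 16.7 CPM and 23.5 ± 0.661 CPM in the same order. The others called higher were Plat, Dab2, Pdgfra, Cubn and Foxa2, of which Cubn and Foxa2 are named after their values were seen. Plat, a protease of parietal endoderm, stood at 30.7 ± 5.27 CPM in BRD0705/PD03 and 13.2 ± 0.949 CPM in 2i. Foxa2, an endoderm factor, stood at 0.475 ± 0.109 CPM in BRD0705/PD03 and 0.106 ± 0.114 CPM in 2i (adjusted p = 0.000756). The 2 called lower were Gata4 and Hnf4a, the latter also named after its values were seen. Hnf4a stood at 0.159 ± 0.0847 CPM in BRD0705/PD03 and 0.641 ± 0.0377 CPM in 2i (adjusted p = 0.000436). Pdgfra, Cubn and Gata4 lost their calls with DESeq2. Trophoblast markers summed to 52.3 to 54.1 CPM in BRD0705/PD03 and 43.5 to 49.8 CPM in 2i. Of 7 tested, 3 were higher and 1 lower, against the same shares of all genes.

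Of 9 receptors of laminin 4 were higher and 4 lower, where 30.1% of all genes were higher and 31.4% lower. Itga6 and Itgb1 encode the integrin chains by which ESCs hold laminin. Itga6 had 156, 165 and 161 CPM in BRD0705/PD03 and 204, 210 and 206 CPM in 2i (-0.36 ± 0.04, adjusted p = 1.66e-07). Itgb1 stood at 237 ± 22.6 CPM in BRD0705/PD03 and 247 ± 6.14 CPM in 2i and did not pass the test (adjusted p = 0.432). Itga3, an alpha integrin chain that favours the Lama3 and Lama5 products, fell to 7.88 ± 0.644 CPM in BRD0705/PD03, against 19.9 ± 0.398 CPM in 2i (-1.34 ± 0.08). Dag1, which encodes dystroglycan, was lower by a small step (-0.35 ± 0.04). Bcam, a receptor for the Lama5 product, rose to 58.4 ± 3.29 CPM in BRD0705/PD03, against 24.2 ± 1.53 CPM in 2i (1.28 ± 0.06), and Itga7, an integrin chain of muscle, changed by 0.73 ± 0.09. Of the receptors named, Itga6, Dag1 and Itga7 lost their calls against a fold of 1.5, and Itga3 and Bcam kept theirs. Dystroglycan binds laminin through a sugar chain. Of 12 genes of dystroglycan glycosylation, the adding of its sugars, 3 were higher and 6 lower, against the same shares of all genes, with a median of -0.13. Pomgnt1, an enzyme of that glycosylation, fell to 28.0 ± 1.59 CPM in BRD0705/PD03, against 47.8 ± 1.79 CPM in 2i. It was the only gene of this list that kept its call against a fold of 1.5.

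Of 17 other basement membrane genes tested, 11 were higher and 4 lower, where 30.1% of all genes were higher and 31.4% lower, with a median of 0.70 against 0.00 over all genes. The difference between those shares was not tested. The nidogens moved apart. Nid1 had 54.0, 56.7 and 61.6 CPM in BRD0705/PD03 and 204, 202 and 207 CPM in 2i (-1.83 ± 0.05, adjusted p = 1.86e-16). Nid2 had 425, 426 and 414 CPM in BRD0705/PD03 and 261, 261 and 258 CPM in 2i (0.70 ± 0.04, adjusted p = 8.98e-12). Nid1 was thus lower together with Lama1 and Lamc1, and Nid2 was higher. Hspg2, the gene of the proteoglycan perlecan, and Sparc, a collagen-binding protein, differed by -0.37 ± 0.04 and -0.36 ± 0.08. Agrn, which binds the laminin coiled coil, and Col18a1, a basement membrane collagen, differed by 0.35 ± 0.04 and 0.42 ± 0.04. Named after their values were seen, Col4a1 and Col4a2, the common chains of type IV collagen, were higher at 0.93 ± 0.12 and 0.71 ± 0.12. Against a fold of 1.5, Hspg2, Sparc, Agrn, Col18a1 and Col4a2 lost their calls, while Nid1, Nid2 and Col4a1 kept theirs. In BRD0705/PD03 Col4a1 had 74.4, 90.0 and 102 CPM, in the same order of libraries as the fibroblast sum. Nid1 and Sparc, both lower in BRD0705/PD03, ran in that order as well, while Nid2, Hspg2 and Agrn did not. Frem2 and Fras1, also named after their values were seen, encode proteins that tie epithelium to the matrix below. Frem2 stood at 65.4 ± 3.77 CPM in BRD0705/PD03 and 1.00 ± 0.262 CPM in 2i, and Fras1 at 8.30 ± 0.456 CPM and 0.0528 ± 0.0602 CPM in the same order. Netrins share the folded end domain of laminin short arms. Of 4 tested, Ntn4, which can break up laminin sheets, was called higher at 0.702 ± 0.180 CPM in BRD0705/PD03 and 0.323 ± 0.172 CPM in 2i, although its libraries overlapped (adjusted p = 0.0155), as was Ntng2, and Ntn1 and Ntn3 did not pass the test. Ntn4 and Ntng2 both lost their calls with DESeq2, against a fold of 1.5, and without BRD0705/PD03 replicate 1 or 2i replicate 1. Ntn4 lost its call also without 2i replicate 2, and Ntng2 without 2i replicate 3.

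**Figure D5:**
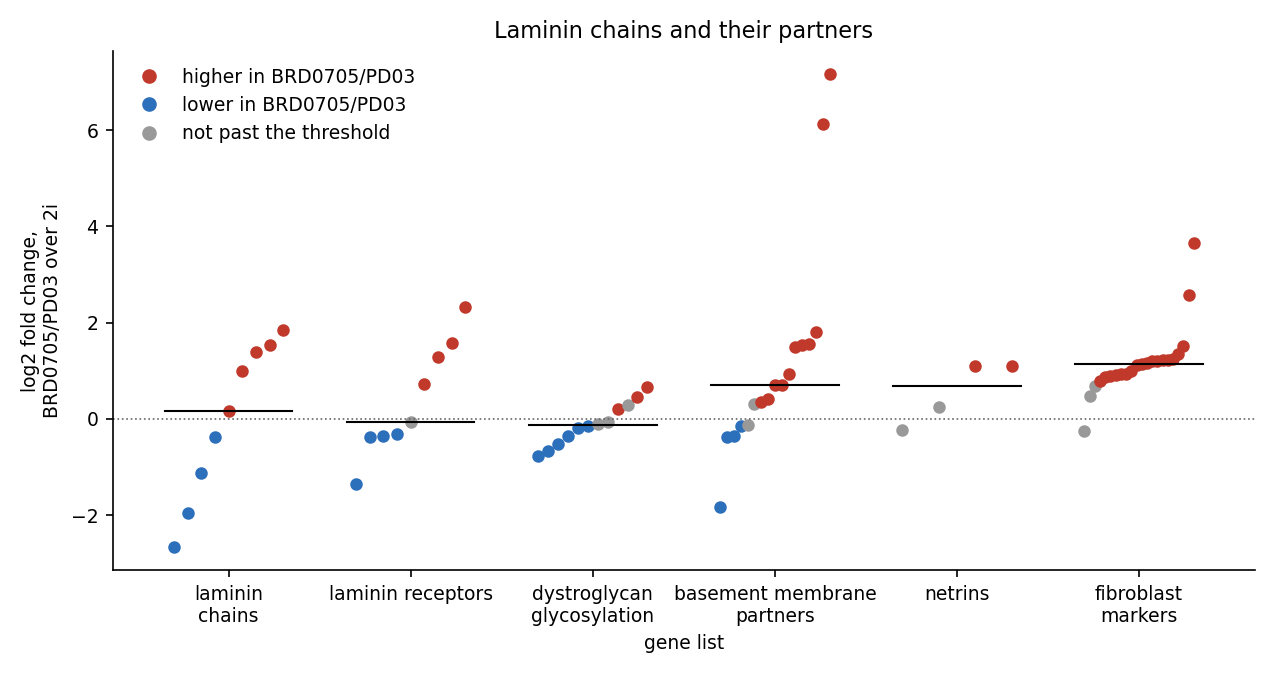
Log2 fold change of BRD0705/PD03 over 2i for each tested gene of 6 lists, sorted within a list; black lines are list medians and colours give the call. Laminin chains and receptors spread to both sides of 0, and fibroblast markers lie mostly above it, with a median of 1.13.

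Neighbours in the genome were compared too, and those named were chosen after their values were seen. Of 18 nearest tested protein-coding neighbours, 1 on each side of each chain gene, 11 were called, where 61.4% of all genes were called, so that their share was near that of genes in general. Of the 11, 8 went in the direction of the chain and 3 in the other. That split was not tested, and of all genes 30.1% were higher and 31.4% lower. Gaps to the chain gene ran from 0.1 kb for Adrm1 to 1826.6 kb for Marcks, which lies beside Lama4. Arhgap28, 20.1 kb from Lama1, was higher (0.44 ± 0.06), and Ptprm, on the other side, was too (1.31 ± 0.20), while Lama1 fell. Dld, 1.6 kb from Lamb1, was higher by a smaller step (0.58 ± 0.05). Adrm1, a proteasome gene 0.1 kb from Lama5, was lower (-0.23 ± 0.05), as Lama5 was.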

How the data were processed

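Total RNA went into a TruSeq kit with RiboZero, which depletes ribosomal RNA, per the labels' protocols. The deposited values are estimated counts per gene symbol as whole numbers, 1 file per library, with totals that differ between libraries; the submitters' processing notes name Salmon and mm10. Annotation, strand setting and transcript summing were not given in the sources used here.

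Groups came from the sample titles. No 2 libraries of a group matched within sampling noise (chi-square per degree of freedom 2.77 to 9.84 over genes with at least 20 counts). The test was that of edgeR 4.0.16 under R 4.3.3 (filterByExpr, TMM, robust quasi-likelihood, group as the only term), two-sided, with Benjamini-Hochberg adjustment over 20422 genes and a threshold of 0.05. Standard errors are the log2 fold change over the square root of F. CPM use effective library sizes. Chromosomes, coordinates and exon lengths came from GENCODE M21 on GRCm38, and promoters from RefSeq on GRCm38.p6.

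In simulated data for BRD0705/PD03 over 2i, on 19943 genes at these depths, the test recovered 36% of 50 genes changed by 1.2-fold, 68% of 50 at 1.5-fold, 94% of 50 at 2-fold and 100% of 50 at 4-fold. Only these genes were changed, all averaged at least 1 CPM, and spread followed the trend with level. In the data 61.4% of genes were called, so the same threshold admits a larger unadjusted p there. The simulation does not cover scarcer genes. Members and lists were chosen with earlier results of these data known. The text names each of the 9 chains and up to 6 tested genes of each other list with the highest mean CPM. It also names 6 fibroblast and 4 endoderm markers whatever their rank, and the 3 genes nearest in pattern to Lama1 and to Lamb1. Exceptions chosen after their values were seen were chain neighbours, 4 basement membrane genes, Lin28a, Cubn, Foxa2, Hnf4a, Col6a3, Tagln and Y-linked genes. Alternatives were median-ratio and upper-quartile factors, no filter, a mean of at least 1 CPM, DESeq2 1.42.0, a block for replicate number, a threshold fold of 1.5, omission of each library, and other gene lengths. Ratios were tested with scipy 1.17.1. Some items covered by the naming rule are not reported here.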

Additional observations from a re-analysis of the deposited data

How the results depend on the processing

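All 9 chains kept their direction under 13 alternatives, and 113 of 117 values stayed on their side of the threshold. Tested against a fold of 1.5, Lama4 (0.99, adjusted p = 0.0871), Lama5 (-0.38, adjusted p = 1.0) and Lamb2 (0.17, adjusted p = 1.0) were not called, 3 chains were higher, and 2498 genes were higher and 2596 lower; that test asks for a larger change by construction. Leaving out 1 library at a time gave log2 fold changes of 0.80 to 1.16 for Lama4, which lost its call without 2i replicate 3 (adjusted p = 0.0504), and 4 or 5 chains called higher. With the replicate number as a block, the log2 fold changes were -2.65 for Lama1, 1.85 for Lamb1 and 0.98 for Lama4, and the block changed no call of a chain. Same-numbered libraries did not deviate together (correlations of -0.01, 0.03 and -0.04), so the numbers were not taken as pairs. Upper-quartile factors moved the median of all genes by 0.07. The alternative by RefSeq protein length was not run, and coding length, added after the data were seen, took its place. Low counts limit Lama2 and Lamb3, and for the 9 chains isoforms cannot be separated.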
